A study of Homo sapiens with 6 samples.

Results

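The 7 genes described here encode the subunits of protein phosphatase 6 (PP6): the catalytic subunit PPP6C, the SAPS-domain subunits PPP6R1, PPP6R2 and PPP6R3, and the ankyrin-repeat subunits ANKRD28, ANKRD44 and ANKRD52. They were taken by gene symbol from a table of 60664 genes, and all 7 passed the filter on low counts, as 15867 genes did in all. The libraries came from SKOV3, a long-established line of human ovarian carcinoma cells. In 3 libraries JUP, which encodes the junction protein plakoglobin, was knocked down (shJUP 1, 2 and 3), and 3 carried a control hairpin (shNC 1, 2 and 3) in cells labelled wild type. The labels describe independent biological replicates and give neither the hairpin sequence nor the number of hairpins, so lower JUP cannot be told apart from anything else the hairpin does. The family was chosen by the levels of ANKRD52, already known to be higher in the shJUP libraries of these data, and its other members were added by name. Its difference, and that of the other members, between shJUP and shNC is therefore given as a description, without a p-value.

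PP6 is a serine/threonine phosphatase of the PPP family, related to PP2A and PP4. In the cell the catalytic subunit binds a SAPS subunit, which in turn binds an ankyrin-repeat subunit, and the regulatory subunits help to choose substrates. PP6 is known for removing the activating phosphate of the mitotic kinase Aurora A, for roles in DNA repair and inflammatory signalling, and, in the form that holds ANKRD52, for dephosphorylating the argonaute protein AGO2.

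Because the ankyrin-repeat subunits are paralogs, the stretch of coding sequence in which they are most alike is shown first, as it bears on whether reads of ANKRD52 could have been counted for its relatives. The lines give 90 coding bases of each gene from GENCODE 29 (GRCh38), all on the minus strand and each spanning the junction of exons 27 and 28, and capitals mark bases that differ from ANKRD52. The window lies at chr12:56243313-56243794 for ANKRD52, chr3:15670477-15675907 for ANKRD28 and chr2:196990848-196993592 for ANKRD44, introns included.
ANKRD52: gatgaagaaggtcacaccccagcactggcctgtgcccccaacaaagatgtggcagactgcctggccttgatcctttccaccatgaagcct
ANKRD28: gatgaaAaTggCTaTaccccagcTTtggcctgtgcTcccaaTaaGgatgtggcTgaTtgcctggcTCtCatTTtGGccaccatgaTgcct
ANKRD44: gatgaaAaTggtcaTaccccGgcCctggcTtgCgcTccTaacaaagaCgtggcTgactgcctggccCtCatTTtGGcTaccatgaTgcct
Even here ANKRD28 differed from ANKRD52 at 20 bases and ANKRD44 at 19. Over the aligned coding sequences ANKRD52 was 63.8% identical to ANKRD28 and 64.7% to ANKRD44, and no identical run was longer than 17 bases. No 50-base word of the longest ANKRD52, ANKRD28, ANKRD44 or PPP6C transcript occurred in a transcript of another gene in that annotation. Of such words, 11.53% of PPP6R1 were shared with the transcript AC010327.5, which lies in the same orientation. PPP6R2 shared 1.06% of its words with a pseudogene and with SBF1, a neighbour on the opposite strand, and PPP6R3 shared 2.2% with the non-coding AP003096.1 on the opposite strand. Whether counting used strand is not stated, and reads in those overlaps cannot be told apart. AC010327.5 had 51.6 to 72.3 estimated counts per shJUP library and 38.9 to 63.9 per shNC library, against 2049 to 2508 for PPP6R1 over all 6. SBF1 had 1766 to 1939 in shJUP and 1389 to 1842 in shNC, against 518 to 768 for PPP6R2.

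Library totals ran from 17456121 to 19279514 estimated counts, and levels are given as CPM, the count scaled to library size, after TMM scaling. JUP stood at 39.9, 93.6 and 24.6 CPM in shJUP 1, 2 and 3, against 104, 133 and 101 CPM in shNC 1, 2 and 3, so shJUP 2 kept 83.0% of the mean control level. Its log2 fold change was -1.10 (SE 0.44), which was not called at 0.05 (adjusted p = 0.47 by edgeR and 0.18 by DESeq2). DESeq2 with a block for the library number called JUP lower (adjusted p = 0.048). Of 10 markers listed for SKOV3, 8 reached 1 CPM in some library. Of these, EPCAM (1.25 to 4.62 CPM) and WT1 (1.55 to 3.61 CPM) were low in all libraries. PAX8 had 286 to 393 CPM in shJUP and 253 to 360 CPM in shNC, and ERBB2 had 2320 to 4422 CPM in shJUP and 4224 to 6907 CPM in shNC. MUC16 and MSLN, which mark many ovarian carcinomas, stayed under 1 CPM in each library. Among markers of other cells, 1 of 5 for leukocytes (CD68), 4 of 5 for endothelium and 1 of 5 for embryonic kidney or neural lines (SOX2) reached 1 CPM in some library, and CD3E, PAX2 and NEFM were at 0 in every library. The leukocyte markers, nearly all CD68, summed to 21.3 to 36.1 CPM in shJUP and 19.7 to 31.6 CPM in shNC. The endothelial markers, mostly KDR, summed to 8.93 to 11.8 CPM in shJUP and 6.69 to 11.6 CPM in shNC. Summed levels of 6 fibroblast markers, mostly COL1A1, were 269, 48.6 and 11.9 CPM in shJUP 1, 2 and 3 and 44.0, 499 and 61.7 CPM in shNC 1, 2 and 3. All 6 fibroblast markers reached 1 CPM in some library, and the part of any of these lists in the results was not tested.

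The ankyrin-repeat subunit ANKRD52 was the member with the largest difference between the groups. It had 278, 194 and 226 CPM in shJUP 1, 2 and 3, against 121, 115 and 126 CPM in shNC 1, 2 and 3. Each shJUP library lay above each control, and the lowest shJUP library was the one with the most remaining JUP. The level did not follow JUP throughout, since shJUP 3 had the least JUP and an intermediate ANKRD52 level. The shJUP mean was 233 ± 43 CPM and the shNC mean 121 ± 5.4 CPM (SD, n = 3 per group), with a fitted log2 fold change of 0.94 (SE 0.15), or 1.92-fold. The shJUP libraries also spread more widely, with a coefficient of variation of 18.3% in shJUP and 4.44% in shNC. Between libraries of the same number the ratio of shJUP to shNC was 2.30 for number 1, 1.68 for number 2 and 1.79 for number 3. The 95% counting interval was 2.19 to 2.42 for number 1, which lies above the interval of 1.59 to 1.77 for number 2. These exact intervals cover counting error only.

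**Figure D1:**
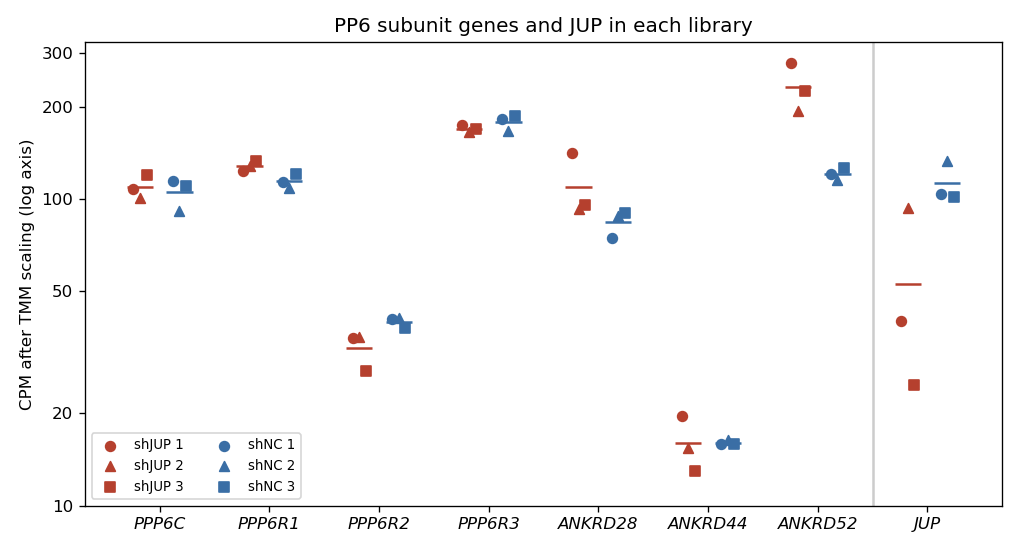
Levels of the 7 PP6 subunit genes and of JUP in each library, as CPM after TMM scaling on a log axis. Points are libraries (shape gives the library number), shJUP is left of shNC, and horizontal lines are means of 3. ANKRD52 stands at 194 to 278 CPM in shJUP and 115 to 126 CPM in shNC, and the groups lie close together for PPP6C, PPP6R3 and ANKRD44.

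ANKRD28, an ankyrin-repeat subunit that has also been linked to focal adhesion proteins, had 141, 92.6 and 95.6 CPM in shJUP 1, 2 and 3, against 74.6, 88.1 and 89.7 CPM in shNC 1, 2 and 3. The groups did not overlap, but the gap rested mainly on shJUP 1, and the other shJUP libraries stood just above the controls. Its log2 fold change was 0.38 (SE 0.18) over all libraries and 0.17 without shJUP 1. The same-number ratio was 1.89 (counting interval 1.77 to 2.02) for number 1 and 1.05 and 1.07 for numbers 2 and 3, whose intervals of 0.982 to 1.12 and 0.996 to 1.14 include 1.

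ANKRD44, the remaining ankyrin-repeat subunit, had 19.5, 15.4 and 13.0 CPM in shJUP 1, 2 and 3, against 15.9, 16.4 and 15.8 CPM in shNC 1, 2 and 3. The shJUP libraries lay on either side of the tightly grouped controls, and the log2 fold change was -0.01 (SE 0.17). At 245 to 350 counts per library its same-number ratios were 1.23, 0.939 and 0.822 for numbers 1, 2 and 3, so their direction differed. The counting intervals were 1.05 to 1.44, 0.797 to 1.11 and 0.690 to 0.977, so those for numbers 1 and 3 lay on opposite sides of 1. In shJUP 1 all 3 ankyrin-repeat genes stood at their highest level of any library.

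The catalytic subunit PPP6C, on which phosphatase activity depends, differed little. It had 108, 100.4 and 119 CPM in shJUP 1, 2 and 3, against 114, 91.6 and 111 CPM in shNC 1, 2 and 3. The groups overlapped, and in each group the number-2 library was the lowest. The log2 fold change of 0.05 was smaller than its SE of 0.13.

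Among the SAPS subunits, which link the catalytic to the ankyrin-repeat subunits, PPP6R1 and PPP6R2 lay on opposite sides of their controls. PPP6R1 had 123, 128 and 133 CPM in shJUP 1, 2 and 3, against 114, 109 and 121 CPM in shNC 1, 2 and 3. The lowest shJUP library stood just above the highest control, and the log2 fold change was 0.16 (SE 0.10). PPP6R2 had 35.1, 35.5 and 27.5 CPM in shJUP 1, 2 and 3, against 40.5, 40.8 and 38.0 CPM in shNC 1, 2 and 3. Here each shJUP library lay below each control, with the lowest level in shJUP 3, and the log2 fold change was -0.28 (SE 0.13). PPP6R3 had 174, 165 and 169 CPM in shJUP 1, 2 and 3, against 182, 167 and 187 CPM in shNC 1, 2 and 3. Its groups overlapped in part, and its log2 fold change was -0.08 (SE 0.10). The coefficient of variation within shJUP was 2.48% for PPP6R3, 3.79% for PPP6R1 and 13.8% for PPP6R2, and 18.3% to 24.8% for the ankyrin-repeat genes. Within shNC it was 3.87% to 5.89% for the SAPS genes and 1.77% to 9.89% for the ankyrin-repeat genes. The 1.77% belongs to ANKRD44, at 288 to 308 counts per control, and is less than counting error alone would give. Each value rests on 3 libraries, and a difference in spread was not tested.

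**Figure D2:**
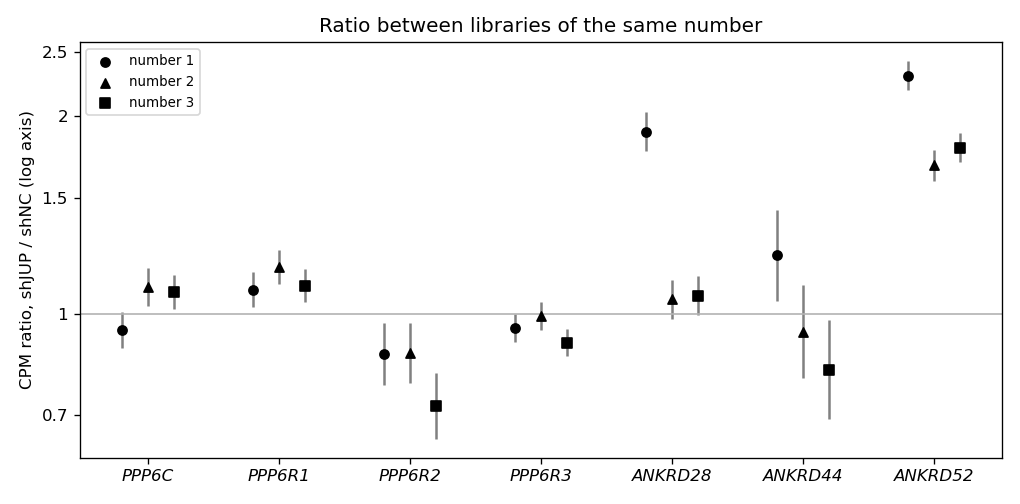
CPM ratio of shJUP to shNC between libraries of the same number, for each PP6 subunit gene, on a log axis with 1 as no difference. Vertical lines are 95% counting intervals. The ANKRD52 ratios of 1.68 to 2.30 all lie above 1, whereas ANKRD28 is well above 1 for number 1 only (1.89).

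Groups that did not overlap were found for 4 of the 7 members, 3 of them higher in shJUP (ANKRD52, ANKRD28 and PPP6R1) and PPP6R2 lower. Over all tested genes, 17% did not overlap, 8.39% wholly higher and 8.65% wholly lower in shJUP. The edgeR quasi-likelihood test called 0 of the 7 at an adjusted p of 0.05, where it called 0% of all genes, and 1594 genes (10%) had an unadjusted p under 0.05. DESeq2 called 1 of the 7, ANKRD52, as higher, where it called 1.19% of the genes it adjusted in either direction. With a block for the library number, edgeR called 0 of the 7 and 0.0063% of all genes. DESeq2 with that block again called ANKRD52 alone of the 7, where it called 5.25% of genes. Since ANKRD52 was listed for this difference, nothing is read from these counts. The median log2 fold change of the 7 was 0.05, with 4 above 0 and 3 below, against a median of -0.01 over all tested genes, of which 48.6% lay above 0.

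To compare levels between genes, CPM was divided by the length of the annotated exons, in kilobases (kb). In shNC, PPP6C had the highest level, at 23.7 ± 2.7 CPM per kb, and overlapped PPP6R3 at 21.5 ± 1.3 CPM per kb (SD, n = 3). Below them came PPP6R1 at 17.4 ± 0.91, then ANKRD52 at 13.7 ± 0.61 CPM per kb, each above the next gene in every control. ANKRD28 at 7.46 ± 0.74 and PPP6R2 at 7.43 ± 0.29 CPM per kb were not separated, and ANKRD44 was last at 1.25 ± 0.022 CPM per kb. In shJUP, ANKRD52 took the first place at 26.4 ± 4.8 CPM per kb, overlapping PPP6C at 24.6 ± 2.1 CPM per kb. PPP6R3 (20.4 ± 0.50) and PPP6R1 (19.5 ± 0.74) overlapped there, and ANKRD28 (9.73 ± 2.4), PPP6R2 (6.12 ± 0.85) and ANKRD44 (1.25 ± 0.26 CPM per kb) followed in that order. The order depends on the length used. By the longest annotated transcript, PPP6R3 led in both groups, at 33.2 ± 0.82 CPM per kb in shJUP and 35.1 ± 2.1 in shNC, and ANKRD52 came after PPP6R3 and PPP6R1 in shJUP and after these and PPP6C in shNC. In shJUP, neighbours among PPP6R3, PPP6R1, ANKRD52 and PPP6C overlapped in that order, whereas in shNC the first 3 genes were separated from the next in every control and ANKRD52 overlapped ANKRD28.

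The shares of the ankyrin-repeat transcripts are given as a description, since the ANKRD52 level by which the family was chosen enters each of them. Per kb of exon, ANKRD52 made up 69.2%, 70.0% and 72.9% of the ankyrin-repeat sum in shJUP 1, 2 and 3, against 63.6%, 59.0% and 60.9% in shNC 1, 2 and 3. ANKRD28 made up 24.2% to 27.5% in shJUP and 30.7% to 35.2% in shNC, and ANKRD44 made up 2.89% to 3.82% in shJUP and 5.26% to 5.76% in shNC. The lower share of ANKRD28 in shJUP follows from the higher ANKRD52 level, as the level of ANKRD28 itself was higher in shJUP. The share of ANKRD44 also reflects its own level, which lay below every control in shJUP 2 and 3 (15.4 and 13.0 CPM). In shJUP 1 that level lay above every control (19.5 CPM). By the longest transcript the ANKRD52 share was lower in both groups, at 56.9% to 61.3% in shJUP and 45.9% to 50.6% in shNC.

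Relative to the catalytic subunit, the ankyrin-repeat sum, most of it ANKRD52, was 1.88, 1.39 and 1.31 times PPP6C per kb in shJUP 1, 2 and 3, against 0.839, 1.08 and 0.944 times in shNC 1, 2 and 3. ANKRD52 alone was at 1.30, 0.973 and 0.952 times PPP6C in shJUP 1, 2 and 3, against 0.533, 0.635 and 0.575 times in shNC 1, 2 and 3. The SAPS sum overlapped between groups, with 1.91, 2.04 and 1.70 times PPP6C in shJUP 1, 2 and 3, against 1.82, 2.15 and 1.92 times in shNC 1, 2 and 3. Within the SAPS sum, PPP6R1 made up 40.6% to 44.3% in shJUP and 36.9% to 38.3% in shNC, and PPP6R2 made up 11.3% to 14.4% in shJUP and 14.8% to 17.2% in shNC. These are shares of transcripts, and the amounts of the proteins or of assembled phosphatase were not measured.

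**Figure D3:**
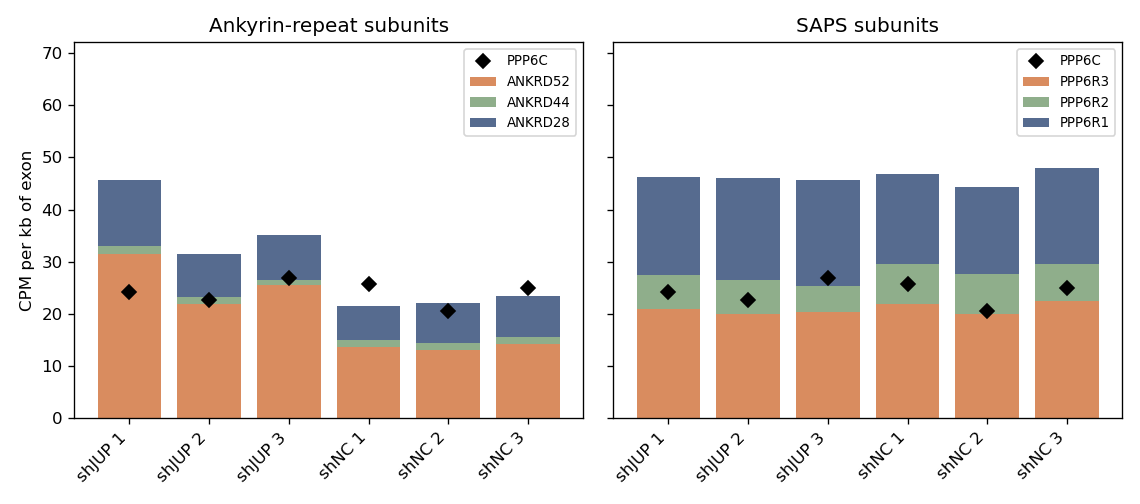
Stacked levels of the ankyrin-repeat subunits (left) and SAPS subunits (right) in each library, in CPM per kb of exon, with PPP6C as diamonds. The ankyrin-repeat stack is 31.4 to 45.6 CPM per kb in shJUP and 21.6 to 23.5 in shNC, and the SAPS stack is 45.7 to 46.2 in shJUP and 44.2 to 47.9 in shNC.

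The direction of ANKRD52 was the same in all 16 settings computed, with log2 fold changes of 0.80 without shJUP 1 to 1.06 without shJUP 2. ANKRD28 stayed above 0, from 0.17 to 0.53, and PPP6R1 from 0.13 to 0.21. PPP6R2 (-0.34 to -0.17) and PPP6R3 (-0.13 to -0.04) stayed below 0. All settings reuse the same libraries. For ANKRD52, ANKRD28, PPP6R1 and PPP6R2, whose groups did not overlap, leaving a library out could hardly turn the sign. Their constant direction is therefore no further support. PPP6C and ANKRD44 had no stable sign.

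**Figure D4:**
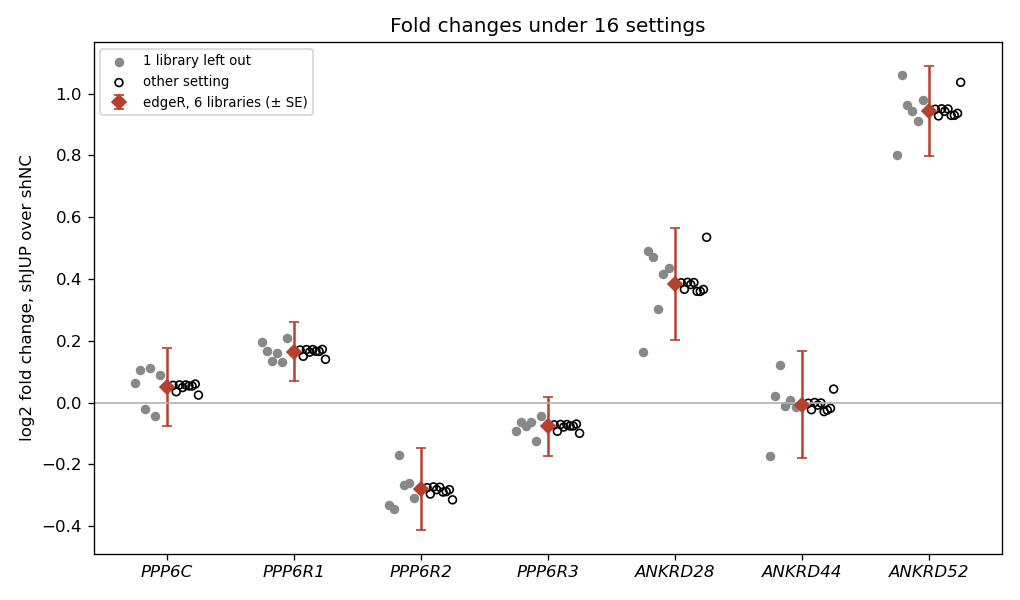
Log2 fold changes (shJUP over shNC) of each PP6 subunit gene in the edgeR fit of 6 libraries (diamonds, bars are ± SE), with 1 library left out (grey points) and under other settings (open circles). ANKRD52 stays between 0.80 and 1.06, and PPP6C and ANKRD44 lie on both sides of 0.

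Genes around PP6 were read from the same fit in 5 lists of 78 genes, of which 75 were tested. The edgeR test called 0 of them, as it called 0% of all genes. An unadjusted edgeR p under 0.05 was found for 10 of the 75, all higher in shJUP, against 1594 of 15867 genes (10%) in either direction. Groups lay wholly higher in shJUP for 15 of the 75 and wholly lower for 1, against 8.39% and 8.65% of all tested genes. The lists were chosen with earlier results of these data known, and this difference from the background was not tested. DESeq2 called 1 as higher and 0 as lower (1.33%, where it called 1.19% of all genes). DESeq2 with the library number as a block, a fit added after seeing the data, called 5 of the 75 (6.67%), all higher, where it called 5.25% of all genes. Both DESeq2 shares are near the background, and the single calls given below are read against it. Their median log2 fold change was 0.04, with 44 above 0 and 31 below.

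Of the other PPP-family catalytic subunits, 10 of 12 were tested, with 6 above 0, 4 below and a median of 0.09. The 3 with the smallest p-values were PPP5C, a phosphatase with its own tetratricopeptide repeats (log2 0.26, SE 0.10), PPP1CC, a catalytic subunit of PP1 (0.24, SE 0.11), and PPP3CC, a catalytic subunit of calcineurin (0.28, SE 0.15). Of the phosphatases related most closely to PP6, the PP2A catalytic genes PPP2CB and PPP2CA were at 0.17 (SE 0.11) and 0.04 (SE 0.10), and PPP4C of PP4 was at -0.10 (SE 0.10). Among 26 tested regulators of PP2A and PP4, 15 were above 0 and 11 below, with a median of 0.01. PPP4R4, a regulatory subunit of PP4, had 11.5, 15.7 and 9.98 CPM in shJUP 1, 2 and 3, against 6.02, 7.22 and 6.53 CPM in shNC 1, 2 and 3. Its groups did not overlap, and its log2 fold change of 0.91 (SE 0.22) was close in size to that of ANKRD52 (adjusted p = 0.38 by edgeR and 0.033 by DESeq2). PPP2R3C, a PP2A regulatory subunit, was at 22.7 ± 4.7 CPM in shJUP and 14.3 ± 2.4 CPM in shNC (log2 0.66, SE 0.20, adjusted p = 0.41 by edgeR). With a block for the library number in DESeq2 it was called higher (adjusted p = 0.017). PPP2R2A, which encodes the B55 alpha subunit of PP2A, had a log2 fold change of 0.31 (SE 0.09, adjusted p = 0.41 by edgeR).

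Among 10 reported substrates and partners in mitosis and DNA repair, 7 were above 0 and 3 below, with a median of 0.22. AURKA, the kinase Aurora A, was at 126 ± 11 CPM in shJUP and 93.1 ± 16 CPM in shNC (log2 0.43, SE 0.15, adjusted p = 0.45 by edgeR). TPX2, which activates Aurora A at the spindle, was at 359 ± 37 CPM in shJUP and 288 ± 55 CPM in shNC (0.32, SE 0.16), and NCAPH, a condensin subunit, had 0.36 (SE 0.19). The shNC 2 library was the lowest of the 6 for all 3 of these genes, as it was for PPP6C. DESeq2 with the library number as a block called AURKA (adjusted p = 0.017) and NCAPG, another condensin subunit, (0.049) higher, and the edgeR log2 fold change of NCAPG without the block was 0.36 (SE 0.22).

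Among 11 genes of the argonaute cycle 4 were above 0 and 7 below, with a median of -0.03. AGO2, on which the ANKRD52 form of PP6 acts, was at 123 ± 9.1 CPM in shJUP and 102 ± 18 CPM in shNC (log2 0.27, SE 0.15). XPO5, which exports precursor microRNAs, had 0.36 (SE 0.12) and AGO4 -0.45 (SE 0.22), with edgeR adjusted p-values of 0.44 and 0.54. CSNK1A1, the kinase that phosphorylates AGO2, was at 441 ± 5.5 CPM in shJUP and 441 ± 23 CPM in shNC. Of 18 signalling genes listed around PP6, which are not all reported targets, 12 were above 0 and 6 below, with a median of 0.04. MOB1A, an adaptor of the Hippo pathway, was at 421 ± 37 CPM in shJUP and 321 ± 50 CPM in shNC (log2 0.39, SE 0.14, adjusted p = 0.45 by edgeR), and DESeq2 with the block called it higher (adjusted p = 0.024). MAP3K7, which encodes the kinase TAK1, had 0.27 (SE 0.10), and the Hippo kinase gene STK3 had 0.26 (SE 0.12).

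**Figure D5:**
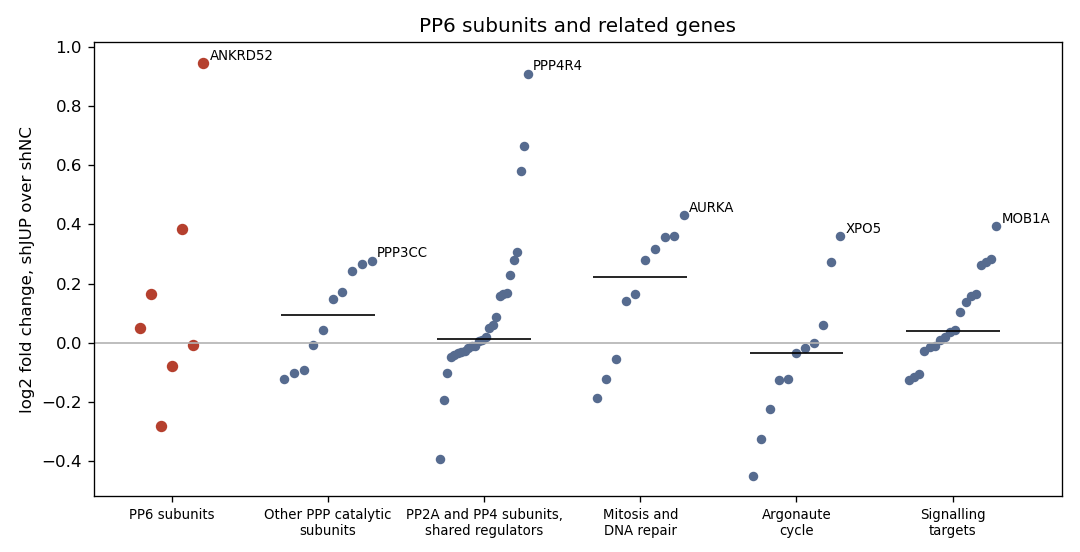
Log2 fold changes (shJUP over shNC, edgeR) of the 7 PP6 subunit genes and of the tested genes of 5 related lists. Each point is a gene, horizontal lines are list medians, and the highest gene of each list is named. ANKRD52 (0.94) and PPP4R4 (0.91) stand above the other genes shown.

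The genes whose level varied most like ANKRD52 over the 6 libraries were sought among 11356 tested genes with a mean of at least 5 CPM, by the root mean square difference of their centred log2(CPM + 0.5). The 5 nearest were FICD (0.10), NAA15 (0.11), BIRC2 (0.13), SRXN1 (0.14) and SYNE3 (0.14). BIRC2 encodes the apoptosis inhibitor cIAP1, SRXN1 the peroxiredoxin reductase sulfiredoxin and SYNE3 a nesprin of the nuclear envelope. FICD, an enzyme that AMPylates the chaperone BiP, had 9.93, 7.47 and 9.82 CPM in shJUP 1, 2 and 3, against 4.59, 4.09 and 4.19 CPM in shNC 1, 2 and 3. NAA15, a subunit of the N-terminal acetyltransferase NatA, had 141, 102 and 145 CPM in shJUP 1, 2 and 3, against 64.7, 63.5 and 71.4 CPM in shNC 1, 2 and 3. As a set chosen for likeness, all 5 had every shJUP library above every control. Among the other members ANKRD28 was the nearest, at 0.31, with 309 genes nearer, and PPP6R2 the farthest, at 0.64, with 8996 genes nearer.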

How the data were processed

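Messenger RNA of 6 SKOV3 cultures was sequenced on a DNBSEQ instrument, per the labels' protocols. The authors deposited unscaled estimated counts per Ensembl gene. The submitters' processing notes list edgeR 3.32.1, DESeq2 1.26.0, STAR 2.7.9a and RSEM 1.3.3 without saying what each did. Build, annotation and strand setting of the counting: not given in the sources used here. Of 60695 rows, 31 held ontology text and no gene ID, and were dropped. Symbols matched 60463 IDs. The estimated counts were rounded, filtered with filterByExpr, scaled by TMM and tested with edgeR 4.0.16 in R 4.3.3 (quasi-likelihood, two-sided, Benjamini-Hochberg over 15867 genes, threshold 0.05). The standard error is the size of the log2 fold change divided by the root of edgeR's F. Alternatives were other scalings and filters, DESeq2 1.42.0, limma-voom 3.58.1, a replicate block, and each library left out. DESeq2 with the block and the fit without both number-2 libraries were chosen after seeing the data.

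The steps were run on simulated counts with known fold changes. These were drawn without an effect of the library number, so the simulation does not cover one. Library numbers were treated as pairs only in the same-number ratios and the replicate block, and the main fit had no pairing. Deviations from group means correlated at 0.14, 0.51 and 0.20 for numbers 1, 2 and 3. However, shJUP 3 correlated at 0.39 with shNC 1, and shJUP 1 at 0.15 with shNC 3, so pairing by number is uncertain. No pair of replicates matched within sampling noise (lowest chi-square 10.1 per gene). Exon lengths and sequences came from GENCODE 29. The members and lists were chosen with earlier results of these data known. Named genes were the 7 members, JUP, the 3 genes of each related list with the smallest edgeR p-values and the 5 most like ANKRD52. PPP4C, PPP2CA, PPP2CB, PPP1CA, PPP1CB, PPP3CA, PPP3CB, PPEF1, PPEF2, NCAPG and CSNK1A1 were named in addition, after their values were seen.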

Additional observations from a re-analysis of the deposited data

How the results depend on the processing

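The number of genes called over the whole table was 0 with edgeR, with the other scalings, the stricter filter, limma-voom and each library left out (0 to 0). It was 5 without a filter, 1 with the replicate block, 49 without both number-2 libraries, 179 with DESeq2 and 696 with DESeq2 and the replicate block, and the cause was not tested. The sign turned for 2 members. PPP6C had a log2 fold change of -0.02 without shJUP 3 and -0.042 without shNC 2, in a range of -0.042 to 0.11 with 1 library left out. ANKRD44 had 9.4e-06 without a filter, 0.044 without both number-2 libraries and -0.17 to 0.12 with 1 library left out, above 0 without shJUP 2, shJUP 3 or shNC 2. The replicate block in edgeR (ANKRD52 0.93, ANKRD28 0.36) changed no member's call. Levels per kb rest on the length chosen: in shNC, PPP6R3 was 21.5 by annotated exons and 35.1 CPM per kb by the longest transcript, and ANKRD52 13.7 and 13.9. At 245 to 350 counts, the depth limits ANKRD44 more than any other member.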

Other observations

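PPP6C was not the most abundant catalytic subunit of its family in these cells. Per kb of exon its level was 24.6 ± 2.1 CPM for shJUP and 23.7 ± 2.7 CPM for shNC (SD, n = 3 per group), below PPP1CB at 84.2 ± 8.4 in shJUP and 89.6 ± 2.4 in shNC. PPP2CA, of PP2A, had 43.6 ± 2.1 CPM per kb in shJUP and 42.4 ± 2.6 in shNC, and PPP4C, of PP4, had 35.0 ± 2.2 in shJUP and 37.5 ± 1.3 in shNC. The calcineurin genes PPP3CA, PPP3CB and PPP3CC also lay under PPP6C, at 9.54 to 12.8 CPM per kb in shJUP and 7.87 to 13.3 in shNC. The tissue-restricted phosphatase genes PPEF1 and PPEF2 were too low to be tested.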
